A study of Mus musculus with 8 samples.

Results

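Of 13838 genes with a row in the deposited tables of ribosome footprints or total RNA, the genes described here are 8 that act in cytoplasmic RNA sensing and the interferon response. They were chosen by symbol: Ddx58, Ifih1 and Dhx58 (the RNA sensors), Mavs (their adaptor), Tbk1 (a kinase), Irf3 and Stat2 (transcription factors) and Oas1a (an interferon-induced enzyme). A row was found for 7 of the 8 in both tables, while Ifih1 has a row in neither and was not analysed here. The cells were the mouse embryonic stem cell line J1 (strain 129S4/SvJae), grown without feeder cells in serum and leukemia inhibitory factor. On day 0 all of them were infected with shRNA vectors, either control shRNAs (shNT, shGFP) or shRNAs against eIF4A2 (sheIF4A2-2, sheIF4A2-3), then kept in 1 μg/mL puromycin for 3 days. On day 4.5 they had 1 min of cycloheximide at 0.1 mg/mL, which stalls ribosomes on mRNA, before lysis. Infection, selection and cycloheximide were thus shared by knockdown and control cells. Ribosome profiling sequences the stretches of mRNA that lie inside ribosomes (footprints), and total RNA was sequenced beside it. There were 2 libraries in each of 4 groups, named here footprint or RNA knockdown 1 and 2 and footprint or RNA control 1 and 2. The sources used here do not give which shRNA went into which library.

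RIG-I (encoded by Ddx58) and MDA5 (Ifih1) are helicases that bind double-stranded or otherwise foreign RNA in the cytoplasm, and LGP2 (Dhx58) is their relative without a signalling domain. Bound RIG-I and MDA5 engage the mitochondrial adaptor MAVS, which leads to the kinase TBK1 and phosphorylation of IRF3, the factor that switches on interferon genes. Secreted type I interferon then acts through a complex with STAT2 and IRF9 on a DNA element, the interferon-stimulated response element (ISRE), found near stimulated genes such as Oas1a, whose product makes the activator of RNase L. Pluripotent stem cells are known for a weak interferon response.

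The genes Ddx58, Stat2 and Oas1a had the smallest p-values of the group in footprints, and the 250 bases before the RefSeq start site of each (build GRCm38.p6) are shown because 2 of them carry letters that match the element through which interferon acts. Ddx58 is read from chr4:40239826-40240075 (minus strand), Stat2 from chr10:128270248-128270497 (plus strand) and Oas1a from chr5:120907526-120907775 (minus strand). Capitals mark matches to the ISRE letters, which were GAAA, any 2 bases and again GAAA, searched on both strands.
Ddx58: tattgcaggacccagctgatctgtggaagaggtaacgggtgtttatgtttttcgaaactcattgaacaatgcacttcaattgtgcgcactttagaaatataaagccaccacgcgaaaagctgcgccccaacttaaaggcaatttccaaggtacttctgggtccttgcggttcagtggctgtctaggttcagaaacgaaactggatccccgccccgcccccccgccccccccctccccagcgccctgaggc
Stat2: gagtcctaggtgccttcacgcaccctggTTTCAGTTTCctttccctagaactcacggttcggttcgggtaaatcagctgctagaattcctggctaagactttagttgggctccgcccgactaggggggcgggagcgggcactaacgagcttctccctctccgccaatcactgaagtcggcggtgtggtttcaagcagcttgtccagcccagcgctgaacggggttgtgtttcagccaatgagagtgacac
Oas1a: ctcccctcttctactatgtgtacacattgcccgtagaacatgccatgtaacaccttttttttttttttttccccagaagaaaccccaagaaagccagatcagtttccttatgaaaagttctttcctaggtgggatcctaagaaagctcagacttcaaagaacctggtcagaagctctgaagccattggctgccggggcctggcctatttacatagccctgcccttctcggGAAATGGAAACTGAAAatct
In Oas1a there were 2 overlapping matches, GAAATGGAAA from 20 to 11 bases and GAAACTGAAA from 14 to 5 bases before the start. In Stat2 the match was TTTCAGTTTC on the opposite strand, 222 to 213 bases before the start. No match lay in the windows of Ddx58, Ifih1, Mavs, Tbk1 and Irf3, and Dhx58 was not matched in the RefSeq promoter table. The ISRE letters were present in 978 of all 32851 promoter windows, 2.98%. The gamma-activated sequence TTCNNNGAA, which reads the same on both strands, was found in 7.02% of windows and, among these genes, in Oas1a (TTCAAAGAA, 98 to 90 bases before the start). These matches describe letters and show no binding.

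Footprint libraries held between 7947827 and 10682677 reads and total RNA libraries between 8564582 and 12840349, and 1 read was worth between 0.0751 and 0.114 of the deposited units, called CPM here because they are reads divided by a factor for library size. The knockdown was partial: Eif4a2 was at 311 and 153 CPM in footprints of the knockdown against 395 and 409 in the control, and at 583 and 617 against 739 and 969 CPM in total RNA. Knockdown replicate 2 thus had the lower Eif4a2 footprints, and the groups did not overlap in either assay. By limma Eif4a2 passed in neither assay, with -0.88 ± 0.29 for footprints (adjusted p = 0.273) and -0.50 ± 0.18 for RNA (adjusted p = 0.290). Its footprint value was -0.37 without knockdown replicate 2 and -1.38 without knockdown replicate 1, and its RNA value was -0.30 without RNA control 2. All 12 stem cell markers looked for (Pou5f1, Nanog and Sox2 among them) had rows, with a summed level of 5580 to 5644 CPM in knockdown footprints and 7386 to 7770 in control footprints. Of 12 fibroblast markers 6 had rows and Col3a1, Dcn, Lum, Postn, Twist2 and S100a4 had none; their sum, mostly Fn1, was 663 to 763 CPM in knockdown footprints and 964 to 1192 in control footprints, and 577 to 585 against 598 to 768 in total RNA. Of 12 markers of macrophages and other blood cells, which express many interferon genes, 3 had rows (Cd68, Itgam and Laptm5), and Ptprc, Lyz2, Csf1r, Aif1, Adgre1, Emr1, Fcgr3, Cd14 and Tyrobp had none. The blood cell sum was 34.7 to 38.5 CPM in knockdown footprints against 58.4 to 64.3 in control footprints, and 23.8 to 26.8 against 25.3 to 54.9 CPM in total RNA. Most of that sum was Laptm5. Cd68 was lower without overlap in both assays, and in total RNA it was the only 1 of the 3 to be so. Itgam was higher without overlap in both, with log2 fold changes of 0.66 and 0.85. It was listed as higher in the authors' deposited table of total RNA, as were 2.21% of that table's genes. Of all genes tested in both assays 12.4% were lower without overlap in both. Higher without overlap were 22.3% of genes in footprints alone and 23.3% in total RNA alone. All of these sums were lower in the knockdown, except that the blood cell groups overlapped in total RNA. Their part in the lower levels described below was not tested. In bulk libraries, fewer cells that express a gene and less RNA per cell cannot be told apart.

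The sensor gene Ddx58 was well below its control level in both assays. In footprints it had 25.2 and 21.9 CPM in the knockdown (replicates 1 and 2) against 35.7 and 52.5 CPM in the control. In total RNA it had 32.2 and 33.9 CPM against 53.0 and 73.3 CPM. Every knockdown library was below every control library in both assays, and control 2 was the highest library in each. The means were 53.4% of control in footprints (23.5 ± 2.36 against 44.1 ± 11.9 CPM, SD, n = 2) and 52.3% in total RNA (33.0 ± 1.196 against 63.1 ± 14.4 CPM, SD, n = 2), with 209 to 530 footprint reads and 408 to 661 RNA reads per library. The log2 fold change of knockdown over control on the log2(CPM + 1) scale was -0.86 ± 0.23 (SE) in footprints, with an adjusted p of 0.199 by limma. In total RNA it was -0.90 ± 0.19, with an adjusted p of 0.129 by limma, so that neither passed the threshold of 0.05. The authors' deposited table of total RNA lists Ddx58 as lower, with a log2 fold change of -0.93 and a false discovery rate (FDR) of 0.00300, and 3.19% of that table's genes were listed as lower at an FDR below 0.05. Their footprint table gave -0.91 with an FDR of 0.0652, short of the same threshold, which 0.889% of its genes passed as lower and 0.788% as higher. Of the 7 genes, Ddx58 was the only one past it in the authors' deposited tables.

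**Figure D1:**
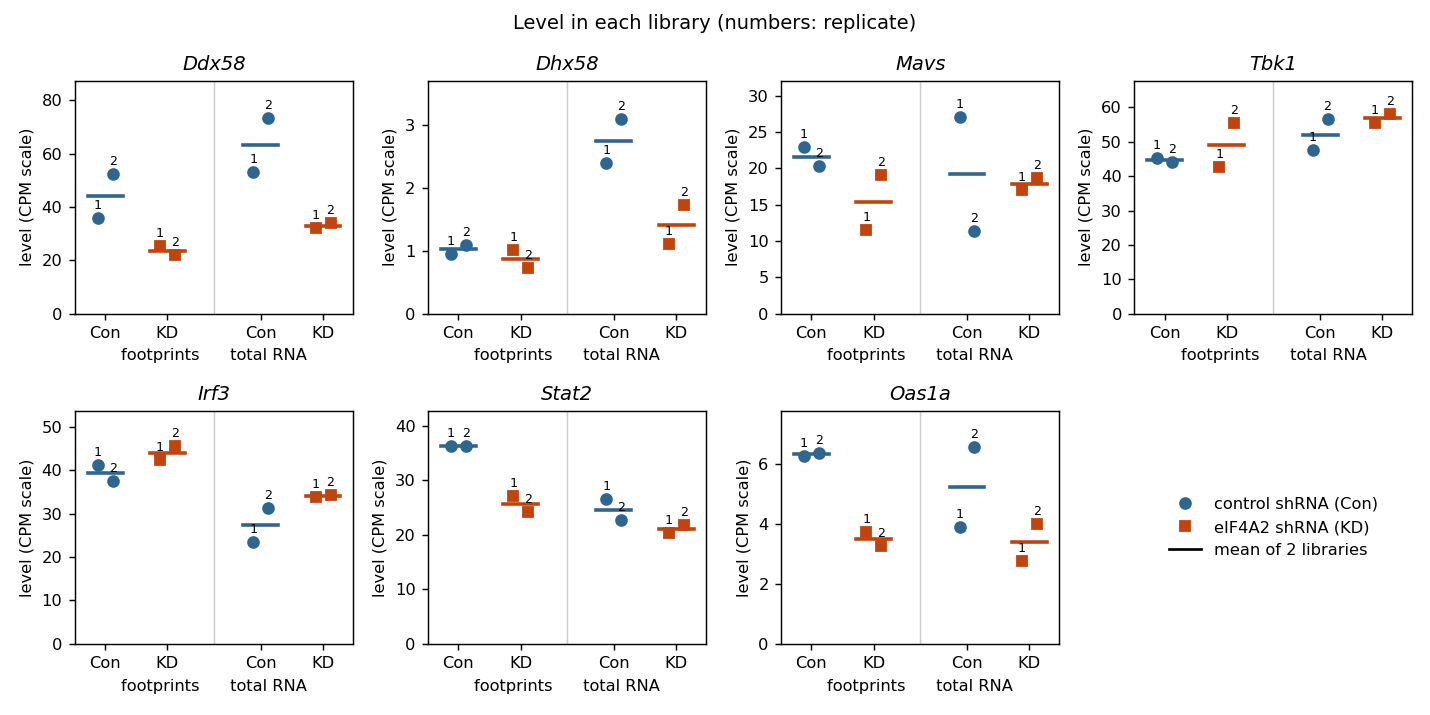
Level on the CPM scale (y axis, from 0, with a scale of its own for each gene) of the 7 genes with rows, in footprints (left of each panel) and total RNA (right). Blue circles are control libraries, orange squares knockdown libraries, numbers are replicates and bars the mean of 2 libraries; Ddx58 and Stat2 are lower in both knockdown libraries than in both control libraries in both assays.

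The related gene Dhx58, a regulator of both sensors, had few reads. Its total RNA was 1.10 and 1.73 CPM in the knockdown against 2.40 and 3.11 CPM in the control, from 14 to 28 reads per library. Both knockdown libraries were below both control libraries, at 51.5% of the control mean, and limma gave -0.64 ± 0.24 with an adjusted p of 0.297. In footprints Dhx58 had only 7 to 11 reads per library (1.01 and 0.732 against 0.956 and 1.09 CPM), the groups overlapped, and it did not pass the filter on low reads, so it was not tested there. A lncRNA gene, Gm38483, overlaps Dhx58 in the RefSeq gene table (assembly GRCm38.p6), and reads of the pair may be mixed, since the sources used here give no strand setting of the counting.

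Mavs, the adaptor, had lower footprints in both knockdown libraries and overlapping groups in total RNA. Its footprints were 11.5 and 19.1 CPM in the knockdown and 22.9 and 20.3 CPM in the control, without overlap, and the log2 fold change was -0.51 ± 0.27 (limma, adjusted p = 0.461). Knockdown replicate 1 was the low one, and without it the footprint value was -0.17. Its total RNA was 17.0 and 18.6 CPM in the knockdown, which lay between the control libraries at 27.1 and 11.4 CPM. The control libraries thus differed more from each other than either did from the knockdown, and the log2 fold change of 0.01 ± 0.37 was 0.60 without RNA control 1 and -0.58 without RNA control 2. No direction can be given for Mavs RNA.

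Tbk1, the kinase that phosphorylates IRF3, had no consistent direction between the groups. Footprints were 42.6 and 55.3 CPM in the knockdown and 45.1 and 44.1 CPM in the control, and total RNA was 55.6 and 58.1 against 47.5 and 56.6 CPM. The groups overlapped in both assays, and the log2 fold change was 0.12 ± 0.19 for footprints and 0.13 ± 0.15 for RNA. Their 95% intervals by limma ran from -0.31 to 0.55 and from -0.24 to 0.50, and the footprint value was -0.06 without knockdown replicate 2.

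Irf3, the interferon-inducing factor, was the 1 gene of the group with higher values in both knockdown libraries of both assays. It had 42.4 and 45.5 CPM against 41.1 and 37.6 CPM in footprints, and 33.9 and 34.3 CPM against 23.5 and 31.3 CPM in total RNA. The means were 112% and 124% of control. limma gave 0.16 ± 0.17 in footprints (adjusted p = 0.750) and 0.32 ± 0.18 in total RNA (adjusted p = 0.469), and the RNA value ranged from 0.12 without RNA control 1 to 0.52 without RNA control 2.

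Stat2, the signal transducer of type I interferon, had lower values in both knockdown libraries of both assays. Its footprints were 27.1 and 24.2 CPM against 36.2 and 36.3 CPM, 70.7% of control, from 231 to 366 reads per library. Its total RNA was 20.3 and 21.8 CPM against 26.5 and 22.6 CPM, 85.7% of control, and in both assays the groups did not overlap. The log2 fold change was -0.49 ± 0.19 for footprints (limma, adjusted p = 0.325) and -0.21 ± 0.16 for RNA (limma, adjusted p = 0.592). The RNA value was -0.10 without RNA control 1 and -0.32 without RNA control 2. The gene Apof overlaps Stat2 in the RefSeq gene table, so part of these reads may be its own.

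Oas1a, whose start region carries the 2 overlapping ISRE matches shown above, had few reads. Footprints were 3.71 and 3.24 CPM in the knockdown against 6.27 and 6.34 CPM in the control, 31 to 64 reads per library, with no overlap. Total RNA was 2.76 and 3.98 CPM against 3.88 and 6.54 CPM, where knockdown 2 lay just above control 1. limma gave -0.71 ± 0.28 in footprints (adjusted p = 0.337) and -0.49 ± 0.28 in total RNA (adjusted p = 0.476), and the RNA value was -0.17 without RNA control 2. The mouse genome holds several near-identical Oas1 genes, so the share of reads given to Oas1a is uncertain.

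**Figure D2:**
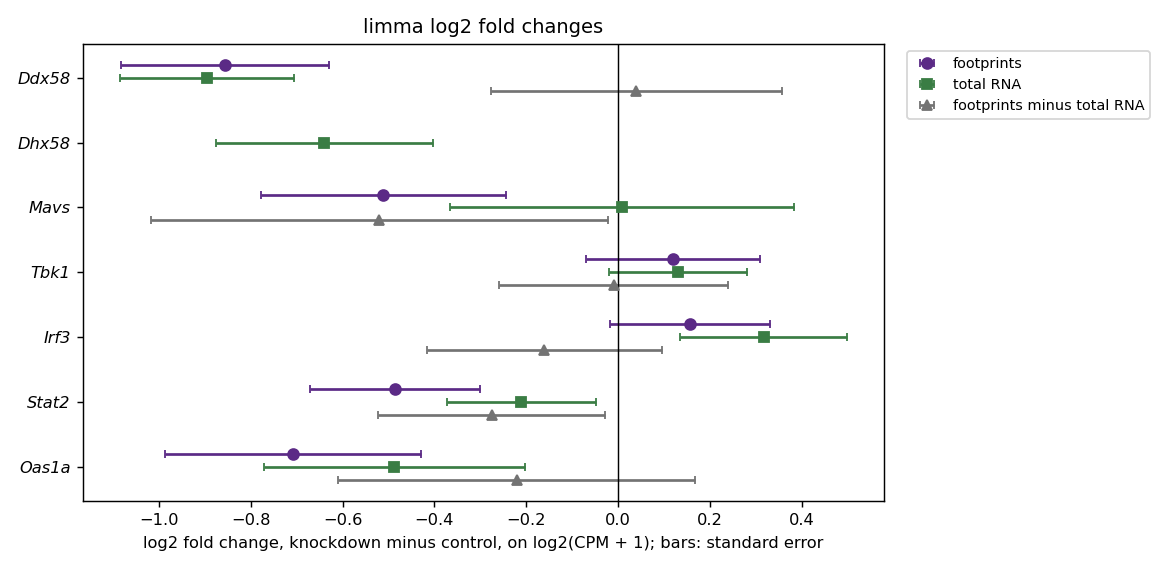
log2 fold change of knockdown over control on log2(CPM + 1) (x axis) for each gene (y axis), by limma: footprints (circles), total RNA (squares) and the difference between them (triangles), with bars of 1 standard error. Ddx58 is at -0.86 and -0.90 with a difference of 0.04, and Irf3 and Tbk1 are right of 0 in both assays.

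Counted together, 0 of the 6 genes tested in footprints and 0 of the 7 tested in total RNA passed limma's threshold of an adjusted p below 0.05, as did 0.0% of all genes in either assay. At an unadjusted p below 0.05 there were 3 in footprints (Ddx58, Stat2 and Oas1a), where 12.9% of all genes tested were, and 2 in total RNA (Ddx58 and Dhx58), against 14.9%. The median log2 fold change was -0.50 over the 6 genes in footprints, where the median of all 12723 genes tested was 0.01, and -0.21 over the 7 in total RNA, where that of all 13436 genes was 0.00. Both knockdown libraries lay below both control libraries for 4 of 6 genes in footprints (background 22.5% of genes) and 3 of 7 in total RNA (24.6%). They lay above both for 1 gene, Irf3, in footprints (background 22.3%) and in total RNA (23.3%). Of the 6 genes tested in both assays, Ddx58 and Stat2 were lower without overlap in both, as were 12.4% of the 12358 genes tested in both. With 2 libraries against 2, an exact permutation test of a single gene cannot give a 2-sided p below 0.333. On whole reads read back from the total RNA table, edgeR's quasi-likelihood test called 0 of the 7 genes, while DESeq2 called Ddx58 (adjusted p = 0.0154; 1.25% of genes were called as lower). edgeR's likelihood ratio test also called Ddx58 (adjusted p = 0.00243; 3.61% of genes were called as lower). In footprints without control 2, a fit added after seeing the data, edgeR's quasi-likelihood test called few genes at all, and none of the group.

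Calls in total RNA turned on the control libraries. Leaving out RNA control 1 made limma call 4 of the 7 (Ddx58, Dhx58 and Oas1a lower, Mavs higher), when 46.1% of all genes were called. Leaving out RNA control 2 made it call 3 (Ddx58 and Mavs lower, Irf3 higher), when 25.4% of all genes were called. With either knockdown library left out those calls were absent, in fits that called few genes at all. In each such fit the lone library is assumed to vary like the pair of the other group. With 1 library left out Ddx58 lay between -1.13 and -0.67 in total RNA and between -1.13 and -0.58 in footprints. Its groups do not overlap, so leaving out 1 library could not change its sign. The sign of Mavs in RNA and of Tbk1 in footprints, where the groups overlap, did not hold.

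**Figure D3:**
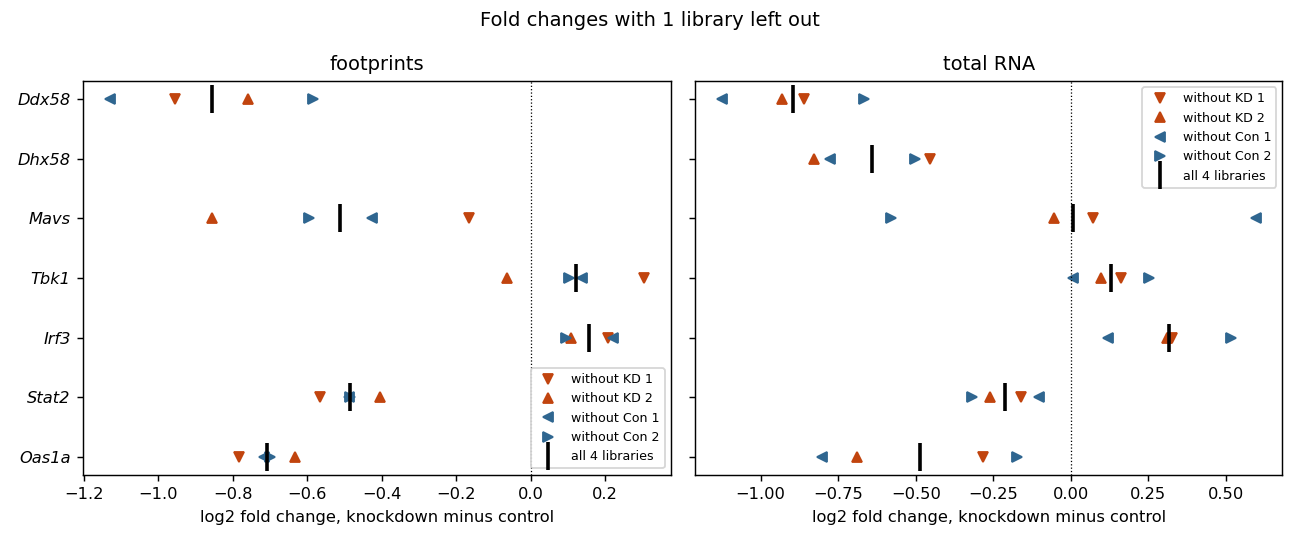
log2 fold change of each gene (x axis) with all 4 libraries of an assay (black bars) and with 1 library left out (triangles, orange for a knockdown and blue for a control library). In total RNA the blue triangles spread farther than the orange ones for every gene but Dhx58, and the blue ones of Mavs lie at 0.60 and -0.58.

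The ratio of footprints to total RNA, which depends in part on how densely an mRNA is occupied by ribosomes, was taken for each gene. In control cells the ratio of means was 1.48 for Stat2 and 1.44 for Irf3, at the 90.1 and 89.0 percentile of 12358 genes, where the median gene had 0.793. It was 1.21 for Oas1a, 1.12 for Mavs, 0.858 for Tbk1 and 0.699 for Ddx58. For Mavs the 4 possible pairings of a footprint with an RNA library ranged from 0.751 to 2.01, and for Stat2 from 1.37 to 1.60. The tables were normalized separately, so the size of a ratio has no meaning of its own. No correction was made for untranslated parts of an mRNA, so the order among genes is not one of ribosome density alone. In the knockdown the ratio was 1.22 for Stat2, 1.29 for Irf3 and 0.712 for Ddx58. The change in translational efficiency (the footprint change minus the RNA change) was 0.04 ± 0.32 for Ddx58, with a 95% interval by limma from -0.67 to 0.74. It was -0.52 ± 0.50 for Mavs, -0.28 ± 0.25 for Stat2, -0.22 ± 0.39 for Oas1a, -0.16 ± 0.26 for Irf3 and -0.01 ± 0.25 for Tbk1. By limma's interaction term 0 of the 6 tested passed, with 0 at an unadjusted p below 0.05 and 1.55% of all genes there, and the adjusted p was 1.00 for each. These intervals leave room for changes of either sign in each of the 6 genes.

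The wider pathway was read from 4 lists of other genes, 131 in all, of which 99 had rows in each table. Over the 98 tested in footprints the median log2 fold change was 0.01 (47 negative, 51 positive), and over the 99 tested in total RNA it was -0.03 (54 negative, 45 positive). limma called 0 in either assay. At an unadjusted p below 0.05 there were 5 lower and 6 higher in footprints (6.74% and 6.12% of all genes) and 7 lower and 7 higher in total RNA (8.08% and 6.82%). The authors' deposited table of total RNA listed 2 of these genes as lower and 4 as higher (3.19% and 2.21% of all its genes), and their footprint table listed 0. The pathway beyond the 8 genes thus held values in both directions.

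Of 32 further double-stranded RNA sensors, effectors and cofactors, 14 of 25 tested were negative in footprints (median -0.07) and 14 of 26 in total RNA (median -0.02). None passed by limma, with 1 and 3 at an unadjusted p below 0.05, where 12.9% and 14.9% of all genes tested were. Eif2ak2, the kinase PKR that halts translation on double-stranded RNA, was 21.4 and 29.9 CPM in knockdown footprints against 33.4 and 49.5 in control footprints, and 27.2 and 29.2 against 36.7 and 39.1 CPM in total RNA. Its log2 fold changes were -0.66 ± 0.25 and -0.41 ± 0.15. Prkra, the PKR activator PACT, was at -0.69 ± 0.22 in total RNA and the antiviral zinc finger protein Zc3hav1 at -0.49 ± 0.15. The RNA editing enzyme Adar was at -0.41 ± 0.18 in footprints but at 0.15 ± 0.13 in total RNA, and the helicase Dhx33 was at 0.40 ± 0.18 in footprints. The Toll-like receptors Tlr3 and Tlr7 and the sensor Zbp1 had no row in either table.

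Between MAVS and the interferon genes, 20 of 29 tested genes were positive in footprints (median 0.11) and 18 of 29 in total RNA (median 0.04). None passed by limma, with 2 and 3 at an unadjusted p below 0.05, where 12.9% and 14.9% of all genes tested were. The largest difference by p in total RNA was that of Optn, an autophagy receptor that binds TBK1, with 9.63 and 9.84 CPM in the knockdown against 19.2 and 18.5 CPM in the control (-0.89 ± 0.16, adjusted p = 0.114 by limma). Its footprints were 12.3 and 12.4 against 24.9 and 17.3 CPM. Irf1, an interferon-inducible activator, was higher in both assays, with 33.2 CPM in both knockdown RNA libraries against 16.1 and 22.5 in the control (0.77 ± 0.20, adjusted p = 0.172 by limma). Traf2, a ubiquitin ligase of the pathway, was at 0.55 ± 0.23 in footprints and 0.49 ± 0.15 in total RNA. Ywhae, a 14-3-3 protein, was at -0.46 ± 0.21 in footprints and 0.00 ± 0.25 in total RNA. The authors' deposited table for RNA lists Optn as lower (FDR = 0.00539) and Irf1 as higher (FDR = 0.0251). Their footprint table listed neither, with -0.77 for Optn (FDR = 0.224) and 0.69 for Irf1 (FDR = 0.364).

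Receptors and JAK-STAT genes were negative in 13 of 19 tested in footprints (median -0.18) and 14 of 18 in total RNA (median -0.10). None passed by limma, with 2 and 1 at an unadjusted p below 0.05, where 12.9% and 14.9% of all genes tested were. The phosphatase Ptpn6, which dampens JAK-STAT signals, was at -0.48 ± 0.21 in footprints and -0.34 ± 0.20 in total RNA, and Ptpn11 at 0.51 ± 0.18 and 0.40 ± 0.14. With 1 library left out Ptpn6 ranged from -0.72 (without footprint control 2) to -0.23 (without footprint control 1), and from -0.57 (without RNA control 1) to -0.11 (without RNA control 2). The interferon genes looked for (Ifnb1, Ifna4 and Ifne) had no row in either table.

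Stimulated genes spread widest, with log2 fold changes from -1.18 to 1.09 in footprints and from -0.86 to 1.52 in total RNA. Some with large values, Psmb8 and Gbp2 among them, had few control RNA reads (2 and 10 in all). The part of depth in this width was not tested. Of 44 looked for, 18 had no row in either table, among them Isg15, Ifit1, Mx1, Rsad2 and Cxcl10, which are among the most inducible. In footprints 11 of 25 tested were negative (median 0.06), and in total RNA 15 of 26 were (median -0.05). None passed by limma, with 6 and 7 at an unadjusted p below 0.05, where 12.9% and 14.9% of all genes tested were. Xaf1, a cell death gene, had 6.79 and 7.06 CPM in knockdown RNA against 13.6 and 13.2 in the control (-0.86 ± 0.17, adjusted p = 0.122 by limma). The antiviral membrane protein Ifitm2 had 124 and 176 CPM in knockdown footprints against 244 and 240 in the control (-0.71 ± 0.19, adjusted p = 0.209 by limma). In the other direction, the GTPase Irgm1 had 5.60 and 5.03 CPM in knockdown RNA against 1.94 and 2.22 (1.04 ± 0.19, adjusted p = 0.117 by limma). The peptide transporter Tap1 was at 0.97 ± 0.29 in footprints and 0.37 ± 0.19 in total RNA. Psmb8, an immunoproteasome subunit, had 1.42 and 1.43 CPM in knockdown RNA and 1 read in each control library, a ratio of 12.7 with an exact 95% counting interval from 3.27 to 108. Among RNA calls of the authors' deposited table, Psmb8 (FDR = 0.000179) and Irgm1 (FDR = 0.00544) were listed as higher and Xaf1 (FDR = 0.0105) as lower. The ISRE letters were in the promoter windows of 12 of the 38 listed genes with a window, and 6 of those 12 were tested. Of the 6, B2m, Ifitm2 and Igtp were lower without overlap in both assays and Gbp2 and Irgm1 higher, while Bst2 overlapped. Of all genes tested in both assays, 12.4% were lower without overlap in both. Higher without overlap were 22.3% of all genes in footprints and 23.3% in total RNA, each assay taken alone. The share higher in both assays at once is not given here, so Gbp2 and Irgm1 have no matching background.

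**Figure D4:**
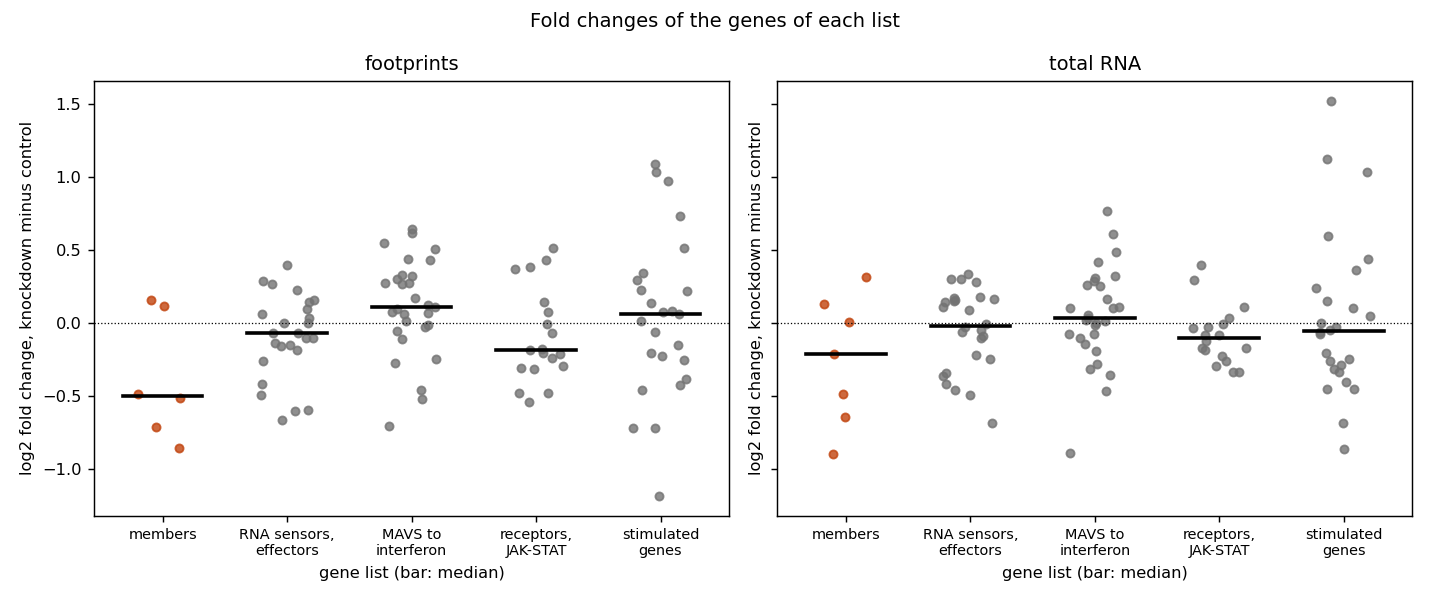
log2 fold change of knockdown over control (y axis) of every tested gene of the group described here (orange) and of the 4 wider pathway lists (grey), in footprints and total RNA, with the median as a bar. The medians are -0.50 and -0.21 for the group and lie between -0.18 and 0.11 for the other lists, whose genes lie on both sides of 0.

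The genes whose pattern was most like that of Ddx58 over the 8 libraries, centred within each assay, were Nucks1 (Pearson r = 0.995), Phf11d (r = 0.9901) and Zfp229 (r = 0.986), among 8018 genes with a mean of at least 10 CPM in both assays. Phf11d had 22.7 and 19.6 CPM in knockdown footprints against 36.5 and 47.6, and Nucks1 357 and 342 against 431 and 518. Like Zfp229, both shared with Ddx58 the order control 2, control 1, knockdown 1, knockdown 2 in footprints. The genes were picked for likeness over these same values, so the shared order is no separate result. Within the group r was 0.751 for Stat2, 0.034 for Mavs, -0.42 for Tbk1 and -0.59 for Irf3. All points share the libraries and their depth.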

How the data were processed

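Footprints and total RNA were measured in 8 libraries, 2 per group. The authors deposited 1 table per assay with genes of few reads already absent. Judged from the deposited values, the signal columns were made by the authors by dividing reads per gene by a factor per library, normalized to the CPM scale. The same deposited tables hold the authors' log2 fold changes, their likelihood ratio score and their p-values with the FDR. Per the submitters' processing notes the build mm9 and the tools edgeR 3.26.8, HTSeq 0.11.2, TopHat2 2.1.1 and Bowtie 1.2.3 were used, with no role given for each.

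Every value was a whole multiple of its column's smallest nonzero value, within 0.01 read. Genes were kept by filterByExpr (edgeR 4.0.16, minimum count 10, minimum total 15) on these reads. For footprint control 2 an automatic check could not tell this step from rounding, so no count test uses that library. The reads given for it, among them the highest footprint total of 10682677, are therefore less certain. They did enter the filter. limma 3.58.1 (R 4.3.3) with a variance trend was fitted to log2(value + 1) of all genes, within each table (2 residual degrees of freedom) and, for translational efficiency, over all 8 libraries with an assay by knockdown interaction, 2-sided with Benjamini-Hochberg adjustment. It was tested on simulated data. DESeq2 1.42.0 and edgeR were run as alternatives. The labels call the replicates biological and do not say that they came from separate thaws or cultures, so p-values measure the spread between these libraries. Intervals from reads cover counting error only.

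The 8 genes and all lists were chosen with earlier results of these data known. Named from each wider list were the 3 genes with the smallest p per assay, and the 3 genes most like Ddx58. A gene that this rule names is not reported here. Promoter letters are RefSeq's.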

Additional observations from a re-analysis of the deposited data

How the results depend on the processing

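The number of the 8 genes past limma's threshold in total RNA, 0 with all 4 libraries, was 1 with DESeq2 and 1 with edgeR's likelihood ratio test (added after seeing the data). In total RNA the number changed with the control library left out, as described above. No footprint call was seen with 1 library left out, in fits that called few genes at all. In translational efficiency 0 of the genes passed, as did 0.0% of all genes tested. The replicate numbers pair no samples by the labels. With the replicate number as a block 1 of the genes (Ddx58, adjusted p = 0.00556 by limma) was called in total RNA, as were 636 of all genes, and 0 in footprints, where 21 of all genes were. Deviations of same-numbered libraries correlated with r = 0.231 in footprints and -0.27 in total RNA, across genes. Over its alternatives the adjusted p of Ddx58 in total RNA ranged from 3.18e-07 to 0.586.

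In footprints 5 of the 6 genes tested kept their sign in every alternative, and Tbk1 ranged from -0.064 to 0.30 with 1 library left out. In total RNA 6 of 7 kept theirs. Where groups do not overlap, as for those 5 in footprints, leaving out 1 library cannot change the sign. Mavs was at -0.0067 with a pseudocount of 4, -0.11 with edgeR's quasi-likelihood test, -0.11 with its likelihood ratio test and -0.11 with DESeq2, and from -0.58 to 0.60 with 1 library left out. For translational efficiency, with 1 library left out, Ddx58 ranged from -0.23 to 0.31, Mavs from -1.11 to 0.068, Tbk1 from -0.19 to 0.17, Irf3 from -0.36 to 0.038 and Oas1a from -0.53 to 0.093; the cause was not tested. The 24 values of the wider lists' named genes kept their sign throughout. Those genes were picked for the smallest p in these same libraries, so the kept sign is no separate result. Depth limits Dhx58, Oas1a, Psmb8 and Irgm1, as well as Gbp2 and Oas2 named below. Irgm1 was at 1.49 in footprints with a pseudocount of 0.25 and at 0.48 with a pseudocount of 4. In total RNA these values were 1.26 and 0.62.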

Other observations

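The following genes were named after their values were seen, and none passed by limma. The guanylate-binding protein gene Gbp2 had 3.00 and 3.61 CPM in knockdown RNA against 0.114 and 0.998 in control RNA, 86 reads against 10, a ratio of 5.88 with an exact 95% counting interval from 3.05 to 12.7. Its footprints were 2.70 and 4.29 against 1.699 and 0.595 CPM, and the authors' deposited table of total RNA listed it as higher. Nmi, an interferon-inducible gene, had 4.28 and 5.13 CPM in knockdown footprints against 2.44 and 2.38, and 3.55 and 3.53 against 1.71 and 2.33 in total RNA (0.74 ± 0.30 and 0.60 ± 0.21). Oas2, a relative of Oas1a, was lower without overlap in both assays, at 49.3% of control in footprints and 57.4% in total RNA, from 8 to 23 and 13 to 16 reads per library. The GTPase gene Igtp was also lower, at 45.8% and 43.6% of control, so that it and Irgm1, both of the same GTPase family, lay on opposite sides.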
